A study of Macaca mulatta with 24 samples.

Results

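Carriers of the solute carrier (SLC) families SLC1, SLC3, SLC6, SLC7, SLC15, SLC36, SLC38 and SLC43 move amino acids and small peptides across cell membranes. Members of these families were followed in the ileum of rhesus macaques after total-body irradiation (TBI). A gene was included when its symbol in the authors' normalized ileum table was one of the names SLC1A, SLC3A, SLC6A, SLC7A, SLC15A, SLC36A, SLC38A or SLC43A with a number after it. This gave 48 of the 16177 genes named on the array and 73 of its 43603 probes. Each gene was read from its brightest probe over the 24 arrays, and 40 of the 48 genes could be tested. For these the probe stood clear of background in all animals of 1 group or more. The other 8 were too dim.

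RNA came from whole ileum of 24 young-adult male Macaca mulatta, 1 array for each animal, so epithelium, muscle, nerve and immune cells were measured together. The controls were 4 unirradiated animals. The others received a single cobalt-60 gamma dose of 6.7 or 7.4 Gy, and for each dose the tissue came from 4 animals at day 4, from 4 at day 7 and from 2 at day 12. The controls are labelled day 4 and were the baseline for each day and both doses, so all 6 comparisons with them share the same animals.

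In the small intestine, transporters in the brush border, the microvillus membrane that faces the lumen, take up free amino acids and di- and tripeptides. Other carriers in the basolateral membrane pass amino acids on to the blood, and a further set is found in most cell types, where it feeds growth and protein synthesis. Brush border transporters are made by mature enterocytes of the villus, which are renewed from dividing cells in the crypts, and these dividing cells are sensitive to radiation.

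Levels are given as log2 signal relative to the 75th percentile of the same array, so that 0 is the 75th percentile, and changes are log2 differences between group means. A gene was called altered when limma gave a Benjamini-Hochberg adjusted p under 0.05 over all 36108 tested probes and the fold change was at least 2. A pair of arrays stood apart in their cell type markers. Control replicate 1 had a summed level of 6 smooth muscle genes of 6.80, against 9.01 to 9.20 in the other controls. Replicate 4 of day 4 after 6.7 Gy had a summed level of 13 enterocyte genes of 7.95, against 9.01 to 9.35 in the other animals of that group. Values without these arrays are given beside several of the results that follow. The enterocyte genes marked all arrays as intestine, with a summed level between 7.95 and 9.92, and FABP2 alone among them was not well above background on either array of day 12 after 6.7 Gy.

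Few transporters were altered. Against the controls, SLC43A2 fell on day 4 after 6.7 Gy, SLC1A1 rose on day 7 after 6.7 Gy and SLC6A19 fell on day 7 after 7.4 Gy, each as the single altered member among 40. No member was altered on day 4 after 7.4 Gy or on day 12 after either dose. Over all tested probes the altered share was 0.978% on day 4 and 0.235% on day 7 after 6.7 Gy, and 2.33% and 0.568% on the same days after 7.4 Gy. On day 12 it was 0.108% after 6.7 Gy and 0.0443% after 7.4 Gy. With limma the unadjusted p was under 0.05 for 13 and 10 of the 40 members on day 4 after 6.7 and 7.4 Gy, against 22.9% and 23.6% of all tested probes. On day 7 these were 4 and 8 members, against 9.36% and 13.4%, and on day 12 they were 2 and 7, against 8.98% and 8.13%. The median change of the 40 members ran from -0.15 to 0.12, and that of all tested probes from -0.10 to 0.06. The t-test of the study's methods with Benjamini-Hochberg adjustment left 0 members altered in all 6 comparisons. The share of all tested probes that this t-test called is not given here. Its counts, here and for the lists below, are therefore no result about the listed genes. Limma with a trend on signal and robust variances called 0 members in the same 3 groups where none was altered.

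**Figure D1:**
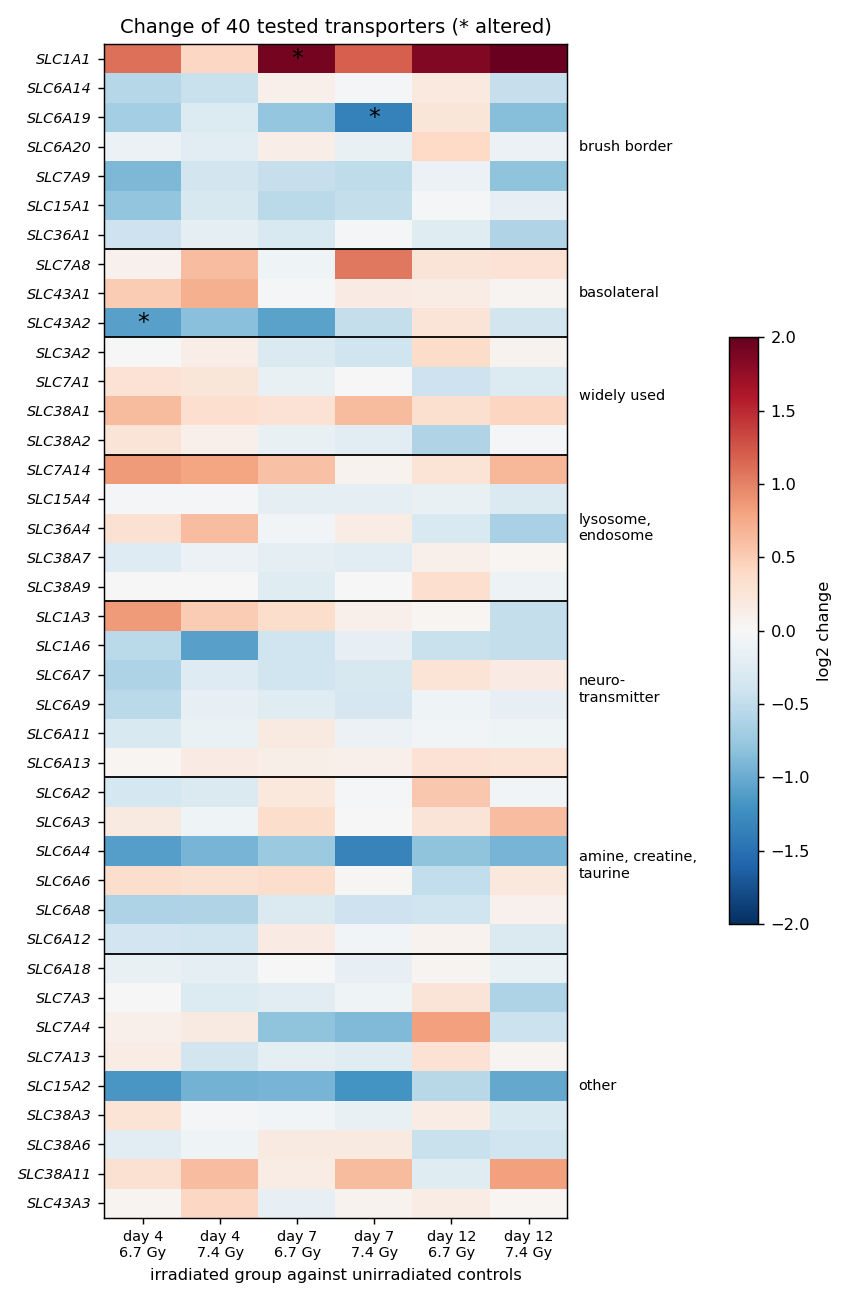
Log2 change of the 40 tested transporters (rows, grouped by role) in the 6 irradiated groups against the 4 controls (columns); red is higher and blue lower than the controls, on a scale from -2 to 2, and an asterisk marks the 3 altered values. SLC1A1 is higher in all 6 groups (0.42 to 1.98, the lowest being 0.10 without control replicate 4), while most other rows stay pale.

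Among the brush border transporters, SLC6A19, which encodes the main sodium-coupled carrier of neutral amino acids (B0AT1), had the lowest levels on day 7 after 7.4 Gy. Its levels in the controls were 1.88, 0.78, 1.59 and 1.27, and on day 7 after 7.4 Gy they were -0.20, 0.46, 0.26 and -0.38. All 4 irradiated animals lay below all 4 controls. The change was -1.34 ± 0.24 (SE), which is 2.54-fold lower, with a limma adjusted p of 0.00639. In bulk tissue, fewer cells of a type and less RNA per cell cannot be told apart. The call held with each of the 8 animals left out, with changes from -1.54 to -1.18, and without control replicate 1 the change was -1.18 (adjusted p 0.031). It was lost, at the same change of -1.34, when only these groups were fitted (adjusted p 0.11) and with the methods' t-test (0.27). Both animals that shared a slide with a control were lower than that control, by differences of -1.62 and -1.16. All controls lay at position 1 of their slides and all animals of days 7 and 12 at positions 3 and 4, so position cannot be told apart from group in any comparison of these days with the controls or with day 4.

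SLC6A19 also had a lower mean than the controls in 4 of the other 5 groups, without passing the test. Its levels on day 7 after 6.7 Gy were 0.28, 0.24, 1.22 and 0.70, with a change of -0.77 (adjusted p 0.23). On day 4 they were 0.95, 0.77, 0.76 and 0.34 after 6.7 Gy and 1.03, 1.05, 1.35 and 1.0 after 7.4 Gy, with changes of -0.67 and -0.27. These groups overlapped the controls. On day 12 the animals after 6.7 Gy were at 1.48 and 1.75, inside the range of the controls, and those after 7.4 Gy at 0.70 and 0.36, below all controls, with changes of 0.23 and -0.85 (adjusted p 0.84 and 0.38).

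The difference between days was itself altered for SLC6A19 after 7.4 Gy. Day 7 was lower than day 4 by a log2 difference of -1.08 ± 0.24 (SE, adjusted p 0.0185), the single member altered in that comparison, in which 0.942% of all tested probes were. The unadjusted p was under 0.05 for 2 members, against 18.8% of all probes. No animal of day 7 reached the lowest of day 4. The call was lost without day 4 replicate 3 (difference -1.0, adjusted p 0.054), day 7 replicate 1 (-1.0, adjusted p 0.052) or day 7 replicate 4 (-0.94, adjusted p 0.052), and with slide as a block (-0.91, adjusted p 0.052).

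SLC1A1 encodes a carrier of glutamate and aspartate (EAAT3) that epithelia and neurons use. Its levels in the controls were 0.95, 0.29, 0.49 and -0.70. Those of day 7 after 6.7 Gy were 2.58, 1.91, 2.13 and 2.10, all above every control. The change was 1.92 ± 0.40 (SE), a 3.79-fold higher level, with an adjusted p of 0.0307. On each of the 4 slides the irradiated animal exceeded the control, by 1.62, 1.62, 1.65 and 2.80. These differences always set position 3 of a slide against position 1, so position and group cannot be told apart for SLC1A1 here. The summed level of 6 genes of crypts and dividing cells also lay higher in this group, at 3.33 to 3.92 against 2.91 to 3.25 in the controls, without overlap. Of these 6 genes none was altered, the unadjusted p was under 0.05 for 3, against 9.36% of all tested probes, and the median change was 0.49. In the other groups the sums overlapped the controls, with median changes of the list from 0.051 to 0.40. The part of these cells in the SLC1A1 values was not tested.

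The direction of this change in SLC1A1 held under the settings tried, but its call was near the threshold. At the same change of 1.92, the call was lost with the replicate block (adjusted p 0.054), with only these groups fitted (0.070) and with the methods' t-test (0.18). Leaving out 1 of the 8 animals moved the change between 1.60 and 2.15, and the adjusted p stayed under 0.05 only without control replicate 1 (0.043). It was 0.12 without control replicate 4, the lowest control, 0.064 and 0.051 without control replicates 2 and 3, and 0.11, 0.063, 0.083 and 0.072 without day 7 replicates 1, 2, 3 and 4.

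In the other groups the mean of SLC1A1 was also above that of the controls, but none was altered. On day 4 its levels were 1.5, 1.43, 0.91 and 1.58 after 6.7 Gy, a change of 1.1 (adjusted p 0.12), and -0.37, 0.89, 1.23 and 0.97 after 7.4 Gy, a change of 0.42 (0.56). Without control replicate 4, the lowest control, the latter was 0.10, and with each of the 8 animals left out in turn it ran from 0.10 to 0.77. Day 7 after 7.4 Gy gave 2.26, 1.27, 1.5 and 0.78, a change of 1.20 (adjusted p 0.18). All 3 of these groups overlapped the controls. On day 12 the levels were 1.27 and 2.93 after 6.7 Gy and 2.30 and 2.18 after 7.4 Gy, above every control, with changes of 1.84 and 1.98 (adjusted p 0.16 and 0.14, 2 animals each). Without replicate 2 of day 12 after 6.7 Gy the change there was 1.01. The arrays of day 12 after 7.4 Gy were all scanned on another day than the controls, and the slides of both scan days were linked only through the day 4 groups and day 7 after 7.4 Gy. With slide as a block the change of SLC1A1 on day 12 after 7.4 Gy was 1.35 (adjusted p 0.72), and 0 members were altered there.

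**Figure D2:**
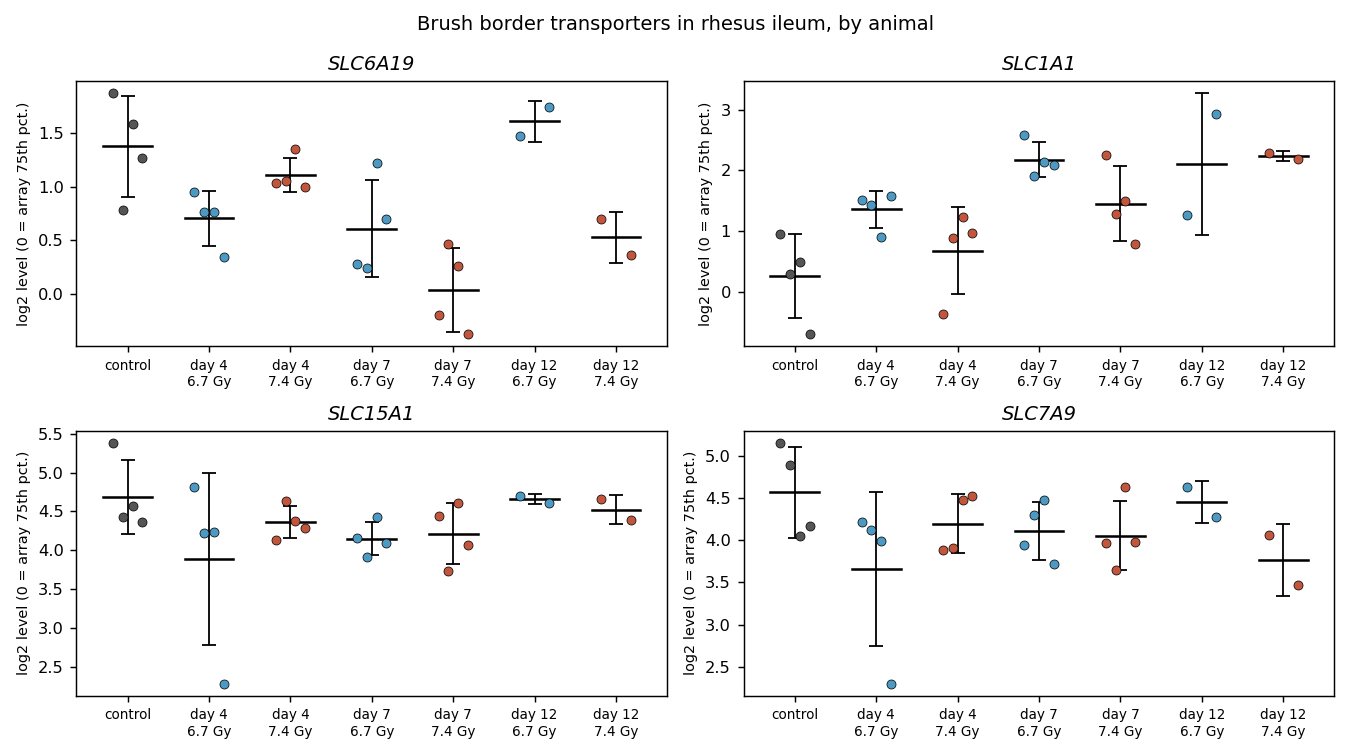
Level of 4 brush border transporters in each animal (points; log2, 0 is the 75th percentile of the array) for the controls and the 6 irradiated groups, with the group mean (line) and SD (bar); blue is 6.7 Gy and red 7.4 Gy. SLC6A19 is lowest on day 7 after 7.4 Gy (mean 0.03 against 1.38 in the controls), SLC1A1 is highest on days 7 and 12, and 1 animal of day 4 after 6.7 Gy lies far below the others in SLC15A1 (2.28) and SLC7A9 (2.30).

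SLC15A1 encodes PEPT1, the proton-coupled uptake carrier for di- and tripeptides. Its levels were 5.38, 4.42, 4.56 and 4.37 in the controls and 4.82, 4.22, 4.23 and 2.28 on day 4 after 6.7 Gy. The last animal was far below the rest. Those at 4.22 and 4.23 also lay below all controls, and that at 4.82 lay inside their range. The change of -0.80 ± 0.36 (SE) did not pass the test (adjusted p 0.20), nor did those of the other 5 groups, which ran from -0.54 to -0.03 and, without control replicate 1, from -0.30 to 0.20. Without replicate 4 of day 4 the change was -0.26 (adjusted p 0.57), and without control replicate 1, the highest control, it was -0.56 (0.41). The 2 dimmer probes of SLC15A1 that were tested gave -0.64 and -0.56 on day 4 after 6.7 Gy.

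SLC7A9 encodes b0,+AT, the light chain of the cystine and dibasic amino acid exchanger, whose heavy chain SLC3A1 had no probe named on the array. Its levels were 5.15, 4.89, 4.05 and 4.17 in the controls and 4.21, 4.13, 3.99 and 2.30 on day 4 after 6.7 Gy. Here too replicate 4 alone was far below, and the groups overlapped. The changes were -0.91 on day 4 after 6.7 Gy (adjusted p 0.14) and -0.80 on day 12 after 7.4 Gy (0.69), and in the other 4 groups between -0.51 and -0.11, or between -0.31 and 0.084 without control replicate 1. On day 4 after 6.7 Gy the change was -0.45 (adjusted p 0.40) without replicate 4 of that group and -0.71 (0.30) without control replicate 1. On day 12 after 7.4 Gy it was -0.50 without replicate 2 and -1.25 with slide as a block.

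The remaining brush border members were SLC6A20, a carrier of proline, SLC36A1, a proton-coupled carrier of small amino acids, and SLC6A14, a carrier of neutral and cationic amino acids. None was altered in any comparison with the controls. Changes of SLC6A20 ran from -0.21 to 0.39 and those of SLC36A1 from -0.60 to -0.03. Without control replicate 1 those of SLC36A1 ran from -0.43 to 0.15. SLC6A14 was dim, well above background on 13 of 24 arrays, and its changes ran from -0.57 to 0.19.

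As a class, 6 of the 7 tested brush border transporters had a lower mean on day 4 after 6.7 Gy, with a median change of -0.57 against -0.10 over all tested probes. The unadjusted p was under 0.05 for 6 of the 7 (5 lower, and SLC1A1 higher), against 22.9% of all tested probes, and none was altered. This count rested on single animals. Without replicate 4 of day 4 it was 3, with a median of -0.27, and without control replicate 1 it was 2, with a median of -0.48. The median was -0.27 on day 4 after 7.4 Gy, -0.31 and -0.15 on day 7 after 6.7 and 7.4 Gy, and 0.19 and -0.46 on day 12. Without control replicate 1 these 5 medians were -0.092, -0.14, -0.0081, 0.28 and -0.37. All animals of day 4 after 7.4 Gy lay at position 2 of their slides. With position as a covariate the changes of that group turned to 0.93 for SLC15A1, 0.65 for SLC7A9, 0.38 for SLC6A20, 0.04 for SLC6A19 and 0.01 for SLC36A1. In this fit only day 4 after 6.7 Gy spanned both positions. Its replicates 1 and 2 lay at position 1, and 3 and 4 at position 2. These pairs also differed in slide and scan day, and replicate 4 was the array with low enterocyte signal. Position cannot be told apart from these, so the values do not show a position effect.

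Markers of the absorptive epithelium were read from the same arrays. Of 13 tested enterocyte genes, VIL1 and KRT20 were lower on day 4 after 6.7 Gy, and VIL1 and FABP1 were lower and LCT higher on day 4 after 7.4 Gy. VIL1, an actin-bundling protein of the microvilli, changed by -1.32 and -1.27 on day 4, and its calls held without control replicate 1 (-1.18 and -1.13). Without that control the calls of KRT20 and FABP1 were lost (-0.85 and -1.08, adjusted p 0.050 and 0.058), and that of KRT20 was also lost without replicate 2 or 4 of day 4 (-0.99 and -0.97, under the required fold). The FABP1 call was lost without replicate 1 of day 4 (adjusted p 0.067), and that of LCT without control replicate 2 or 3 or day 4 replicate 2 or 4 (0.050, 0.051, 0.065 and 0.052). None of the 13 was altered on days 7 and 12. The median of the list was -0.57 and -0.18 on day 4 after 6.7 and 7.4 Gy, -0.10 and -0.23 on day 7, and 0.16 and -0.20 on day 12. On day 4 it was -0.062 after 6.7 Gy without replicate 4 of that group, and -0.34 and 0.014 without control replicate 1. The summed level of the list ran from 9.28 to 9.79 in the controls, 7.95 to 9.35 and 9.08 to 9.23 on day 4 after 6.7 and 7.4 Gy, and 9.41 to 9.66 and 9.10 to 9.77 on day 7. On day 12 it was 9.59 to 9.92 and 9.04 to 9.45. The part of these cells in the transporter changes was not tested. Of 7 general epithelial genes none was altered in any group, with medians of -0.29 and -0.54 on day 4 and between -0.08 and 0.11 on days 7 and 12.

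**Figure D3:**
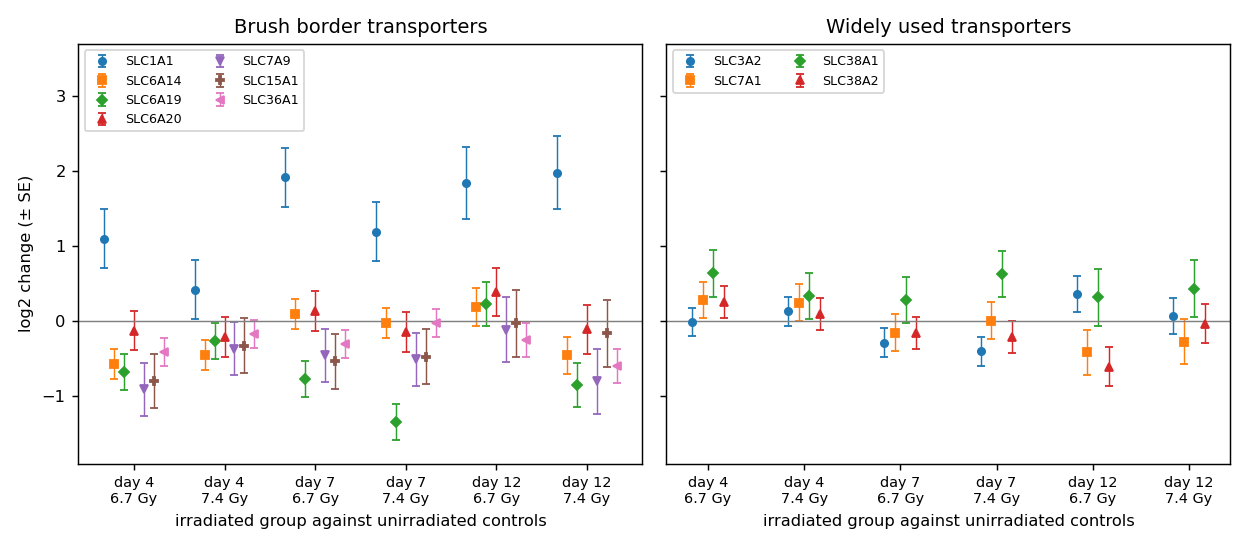
Log2 change with its standard error (bars) of the 7 tested brush border transporters (left) and the 4 tested widely used transporters (right) in the 6 irradiated groups against the controls. SLC1A1 lies above 0 in each group and SLC6A19 reaches -1.34 on day 7 after 7.4 Gy, while the widely used genes stay between -0.60 and 0.64.

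The widely used transporters, found in most cell types, showed no altered member in any of the 6 comparisons, with limma, with its trend and robust setting or with the methods' t-test. SLC3A2 encodes the heavy chain 4F2hc shared by several exchangers, and its changes ran from -0.40 to 0.36, or from -0.21 to 0.56 without control replicate 1. SLC38A1 and SLC38A2 encode sodium-coupled glutamine and alanine carriers (SNAT1 and SNAT2), with changes from 0.28 to 0.64 and from -0.60 to 0.26. SLC7A1 encodes the cationic carrier CAT1, with changes from -0.41 to 0.28. The smallest adjusted p among these 24 values was 0.22, for SLC38A1 on day 4 after 6.7 Gy, where the levels were 0.46, -0.02, 0.77 and 1.28 against 0.27, 0.10, -0.69 and 0.26 in the controls, with overlap. Without control replicate 3 the change of SLC38A1 was 0.41. Without replicate 4 of day 4 after 6.7 Gy, the change of SLC38A1 there was 0.42 and that of SLC7A1 -0.010, against 0.64 and 0.28 with it. On day 12 after 6.7 Gy the SLC7A1 change was -0.41, or -0.25 without control replicate 4. The dimmer tested probe of SLC7A1 went the other way, at -0.21 on day 4 and 0.46 on day 12 after 6.7 Gy.

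The median of the 4 widely used genes was 0.27 and 0.19 on day 4 after 6.7 and 7.4 Gy, -0.15 and -0.10 on day 7, and -0.05 and 0.02 on day 12. With 1 animal left out at a time the day 4 medians ran from 0.13 to 0.39 and from 0.12 to 0.31, and the second was -0.13 with array position as a covariate. On day 7 they ran from -0.19 to -0.039 and from -0.19 to 0.039, and on day 12 from -0.22 to 0.089 and from -0.030 to 0.056. The unadjusted p was under 0.05 for SLC3A2 on day 7 after 7.4 Gy and for SLC38A2 on day 12 after 6.7 Gy. SLC7A11, the cystine and glutamate exchanger xCT, was too dim to be tested: its probe was well above background on 13 of 24 arrays, with levels from -7.43 to -4.55. SLC1A4, SLC1A5, SLC7A5 and SLC7A6 had no probe named on the array. The difference between this class and the brush border class was not tested.

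In the basolateral membrane, SLC43A2 (LAT4), a uniporter of branched-chain and aromatic amino acids, was lower on day 4 after 6.7 Gy. Its levels in the controls were -0.43, -1.96, -1.59 and -1.91, and on day 4 after 6.7 Gy they were -2.51, -2.53, -2.46 and -2.71. The irradiated animals lay within a narrow range below all controls. The change was -1.08 ± 0.28 (SE), 2.12-fold lower, with an adjusted p of 0.0443. Control replicate 1, the array with little smooth muscle signal, was the highest, and without it the change was -0.73 (adjusted p 0.11). The adjusted p was also above 0.05 without control replicate 3 (0.078) or without replicate 1, 2, 3 or 4 of day 4 (0.060, 0.068, 0.058 and 0.10), and it was 0.35 with array position as a covariate. It was 0.054 with the replicate block, 0.061 with the array median subtracted and 0.053 with quantile normalization.

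SLC43A2 on day 7 after 6.7 Gy was at -2.66, -2.43, -2.76 and -2.34, again below all controls, with the same change of -1.08 but an adjusted p of 0.11. After 7.4 Gy it was at -2.85, -2.39, -1.86 and -2.15 on day 4 and -1.63, -2.15, -2.10 and -1.91 on day 7, and both groups overlapped the controls (changes of -0.84 and -0.48). Without control replicate 1 these changes were -0.49 and -0.13 (adjusted p 0.25 and 0.88), and that of day 7 after 6.7 Gy was -0.73 (0.31). On day 12 it was at -0.71 and -1.71 after 6.7 Gy and -1.97 and -1.70 after 7.4 Gy, with changes of 0.26 and -0.36, which without control replicate 1 were 0.61 and -0.013.

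Day 12 after 6.7 Gy was above day 4 after the same dose by 1.34 ± 0.34 (SE), 2.53-fold, with an adjusted p of 0.0289. SLC43A2 was the single altered member there, where 2.59% of all tested probes were altered. The unadjusted p was under 0.05 for 9 members, against 27.5% of all probes. This rested on 2 animals on day 12, and without the higher of them, replicate 1, the difference was 0.84 (adjusted p 0.30). Without replicate 4 of day 4 it was 1.29 (adjusted p 0.057). With slide as a block it was 1.76 (adjusted p 0.061), and with only these groups fitted the adjusted p was 0.16. Without replicate 3 of day 4, SLC6A2 and SLC38A2 were altered too, which made 3 members.

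The other basolateral members that could be tested were SLC7A8 and SLC43A1. SLC7A8 (LAT2), a light chain that pairs with SLC3A2, was chosen for mention after its values were seen. On day 7 after 7.4 Gy it was at 2.41, 0.90, 1.26 and 0.56, above all controls at 0.50, -0.23, 0.12 and 0.54, with a change of 1.05 that did not pass the test (adjusted p 0.17). Without replicate 1 of that group, the highest animal, the change of SLC7A8 was 0.67 (adjusted p 0.34). Its 2 dimmer probes gave 0.38 and 0.15 there. SLC7A7, the partner of SLC3A2 in the export of dibasic amino acids, had no probe named on the array.

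**Figure D4:**
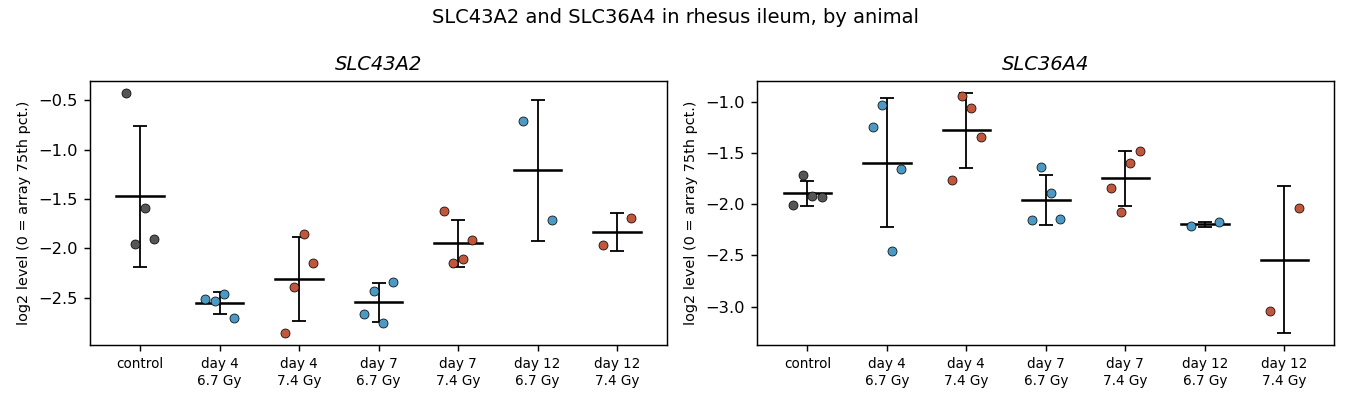
Level of SLC43A2 and SLC36A4 in each animal (points; log2, 0 is the 75th percentile of the array) for the controls and the 6 irradiated groups, with the group mean (line) and SD (bar); blue is 6.7 Gy and red 7.4 Gy. The 4 animals of day 4 after 6.7 Gy lie between -2.71 and -2.46 in SLC43A2, below every control, and SLC36A4 is lowest in 1 of the 2 animals of day 12 after 7.4 Gy (-3.05).

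Transporters of lysosomes and endosomes, of which 5 were tested, had no altered member against the controls, with changes from -0.65 to 0.85. SLC36A4, a carrier of proline and tryptophan named here after its values were seen, differed between days after 7.4 Gy. Its levels were -1.77, -0.95, -1.06 and -1.34 on day 4 and -3.05 and -2.04 on day 12, with no overlap. The difference was -1.26 ± 0.32 (SE, adjusted p 0.0364), and SLC36A4 was the single altered member in a comparison where 1.8% of all tested probes were altered. The unadjusted p was under 0.05 for 3 members, against 19.8% of all probes. Neither day was altered against the controls, which were at -2.01, -1.72, -1.92 and -1.93. The call was lost without day 12 replicate 1 (-0.76, adjusted p 0.43) and without day 4 replicate 2, 3 or 4 (adjusted p 0.069, 0.074 and 0.056). The 2 animals of day 12 after 7.4 Gy were scanned on another day than part of the day 4 animals, and with slide as a block the difference was -1.39 (adjusted p 0.062). Against the controls, SLC36A4 changed by -0.65 on day 12 after 7.4 Gy, or by -0.14 without replicate 1 of that group and -1.15 without replicate 2.

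None of the 6 tested neurotransmitter carriers was altered in the 6 comparisons, with changes from -1.08 to 0.85. Neither was any of the 6 carriers of amines, creatine and taurine, nor of the 9 other tested members. Their most shifted genes, picked after their values were seen, were SLC6A4 and SLC15A2. SLC6A4, the serotonin transporter, was at 3.07, 1.83, 1.86 and 1.75 in the controls and at 0.75, 1.09, 1.17 and 0.14 on day 7 after 7.4 Gy, below every control, with a change of -1.34 (adjusted p 0.17). Without control replicate 1, its highest control, the change was -1.02 (adjusted p 0.41). With replicate 4 of day 4 after 6.7 Gy left out of the fit, which changes the shared spread and not this difference, the adjusted p was 0.018 and SLC6A4 was altered. Its change was between -1.10 and -0.74 in the other groups, and the largest of these, on day 4 after 6.7 Gy, was -0.49 without replicate 4 of that group. Without control replicate 1 the change of SLC6A4 was -0.62 on day 4 after 7.4 Gy and -0.43 on day 7 after 6.7 Gy. On day 12 it was then -0.49 after 6.7 Gy and -0.62 after 7.4 Gy. SLC15A2 (PEPT2), a peptide carrier better known from kidney, was at -4.62, -4.33, -3.78 and -2.55 in the controls and at -5.03, -4.84, -5.16 and -4.89 on day 4 after 6.7 Gy, again below every control, with a change of -1.16 (adjusted p 0.071). Without control replicate 4, which was far above the other controls, the change of SLC15A2 was -0.73 (adjusted p 0.15). It was -0.94 on day 4 after 7.4 Gy, -0.94 and -1.20 on day 7 and -0.55 and -1.02 on day 12 (adjusted p 0.10 to 0.73), and without that control these were -0.52, -0.51, -0.77, -0.13 and -0.59. With slide as a block it was altered on day 4 after 7.4 Gy, as the single member.

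Nerve and muscle, which also carry transporters of these classes, were followed by their own markers. For the 8 tested genes of neurons and glia the median change was 0.79 and 1.04 on day 4 after 6.7 and 7.4 Gy. Without control replicate 1, the control with little smooth muscle signal, these medians were 0.40 and 0.65. The 6 smooth muscle genes had median changes of 0.41 and 0.75, with none altered, and without control replicate 1 the medians were -0.13 and 0.22. The summed level of 10 nerve genes was 0.73 in control replicate 1, 1.84 to 2.18 in the other controls, and 1.70 to 3.12 and 2.30 to 2.78 on day 4. GFAP, a glial marker, was not well above background on any array of 6 of the 7 groups. Of 7 tested plasma cell genes, TNFRSF17 and PRDM1 were lower on day 7 after 7.4 Gy, where 0.568% of all tested probes were altered. The list median was -1.41 there, -0.64 and -0.86 on day 4 after 6.7 and 7.4 Gy, and -1.13 and -0.71 on day 12. Without control replicate 4 the medians of days 4 and 12 were -0.38, -0.57, -0.66 and -0.43. The PRDM1 call was lost without control replicate 1 (-0.83, adjusted p 0.097), without control replicate 4 or without day 7 replicate 1, 2 or 4 (adjusted p 0.070, 0.057, 0.052 and 0.12), and that of TNFRSF17 without control replicate 4 (0.051). Of 3 tested B cell genes, CD79B, part of the B cell receptor, was lower on day 7 after 7.4 Gy and on day 4 after both doses. It was named after its values were seen. The changes of CD79B were -1.34 on day 7 after 7.4 Gy and -1.29 and -1.25 on day 4 after 6.7 and 7.4 Gy, and the list medians had the same values. Its call was lost in all 3 groups without control replicate 4 (-0.98, -0.93 and -0.89), on day 4 after 6.7 Gy also without control replicate 3 (adjusted p 0.059), and on day 7 also without control replicate 3 or any 1 day 7 animal (adjusted p 0.050 to 0.087). Of 4 tested erythroid genes 1 was lower in all groups but day 12 after 7.4 Gy. Of 7 tested T cell genes none was altered on day 7, with medians of -0.77 after 6.7 Gy and -0.85 after 7.4 Gy. On day 4 the altered share of all tested probes was 0.978% after 6.7 Gy and 2.33% after 7.4 Gy. Of 5 macrophage and 6 endothelial genes 1 each was altered, higher on day 4 after 7.4 Gy, and of 3 neutrophil genes none was in any group. The part of these cells in the transporter values was not tested.

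The 7.4 Gy dose was compared directly with 6.7 Gy on each day. No transporter was altered between the doses on day 4, 7 or 12. Among all tested probes 0 were altered on days 4 and 7 and 1 on day 12 (0.00277%). With limma the unadjusted p was under 0.05 for SLC6A9 on day 4 (5.54% of all probes), for 3 members on day 7 (4.02%) and for 4 on day 12 (6.25%), and the trend and robust setting also called 0 on each day. For SLC6A19 the difference was -0.58 ± 0.24 (SE) on day 7 and -1.08 ± 0.34 on day 12, with adjusted p of 0.992 and 0.671. For SLC1A1 on day 7 it was -0.73 ± 0.40 (adjusted p 0.992). Without replicate 3 of day 7 after 6.7 Gy, the difference of SLC6A19 on day 7 was -0.37. The day 12 arrays of the doses were scanned on different days, and with slide as a block the difference of SLC6A19 on day 12 was -1.08 (adjusted p 0.998), with 0 probes altered. Between day 7 and day 4 after 6.7 Gy no member was altered either, where 0.354% of all tested probes were, and the unadjusted p was under 0.05 for 5 members, against 19.1% of all probes.

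The enzymes and partner proteins that work beside these carriers were counted as well. Of 12 tested brush border peptidases and partners, the single gene altered against the controls was TMEM27 (collectrin), a protein that helps carriers of the SLC6 family reach the membrane. It rose on day 4 by 1.18 ± 0.22 (SE) after 6.7 Gy and 1.34 ± 0.22 after 7.4 Gy, which is 2.27-fold and 2.53-fold (adjusted p 0.00835 and 0.00176). Its levels ran from -4.54 to -3.84 in the controls and from -3.44 to -2.61 and -3.33 to -2.30 in these groups, without overlap. With the methods' t-test no gene of this list was altered on either dose. On days 7 and 12 TMEM27 was not altered, with changes from 0.11 to 0.37. Between days it fell from day 4 to day 7 after 7.4 Gy by 1.13 and from day 4 to day 12 by 1.07 after each dose (adjusted p 0.00958, 0.0279 for 6.7 Gy and 0.0355 for 7.4 Gy). All 3 of these TMEM27 calls were lost with 1 animal left out, with the weakest differences at -0.95, -0.77 and -0.89. ENPEP, an aminopeptidase named here after its values were seen, was higher on day 12 than on day 4 after 6.7 Gy by 1.55 (adjusted p 0.0377), and by 1.02 (0.0387) without replicate 4 of day 4. The ENPEP call was lost without either day 12 animal (adjusted p 0.15 and 0.23). The median change of the 12 genes on day 4 was -0.45 and -0.32. It was 0.16 after 6.7 Gy without replicate 4 of that group, and -0.32 and -0.050 without control replicate 1. With replicate 4 of day 4 after 6.7 Gy left out of the fit, PDZK1, a scaffold protein of the brush border, was also altered on day 4 after 7.4 Gy (-1.45, adjusted p 0.00542), which made 2 genes of the list.

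Targets of ATF4, the transcription factor that raises amino acid transporter genes when amino acids are scarce, had 12 tested genes, and none was altered in any of the 6 comparisons. Their median change ran from -0.12 to 0.27. The unadjusted p was under 0.05 for 2 and 4 of them on day 4 after 6.7 and 7.4 Gy, 2 and 3 on day 7, and 3 and 3 on day 12. The shares of all tested probes in the same order were 22.9%, 23.6%, 9.36%, 13.4%, 8.98% and 8.13%. The methods' t-test also called 0, and limma with trend and robust variances called NUPR1, a stress-induced gene, on day 4 after 7.4 Gy. With replicate 4 of day 4 after 6.7 Gy left out of the fit, limma called NUPR1 in the same comparison too (1.05, adjusted p 0.0284).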

How the data were processed

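Ileum RNA of 24 animals in 7 groups was measured on Agilent single-colour arrays, and samples were grouped by their titles. Day 12 was used where the protocol text of the labels names another day. The authors read the arrays with Feature Extraction, whose processed signal is a background-subtracted intensity, and deposited log2 values normalized to the 75th percentile and centred on each probe's median. Here log2 of the deposited scanner intensity minus the 75th percentile of the array was used. The 36108 probes that all animals of 1 group or more showed well above background were tested with limma 3.58.1 in R 4.3.3, with 1 mean for each group, no covariate and Benjamini-Hochberg adjustment; altered means an adjusted p under 0.05 and a fold change of at least 2. The number of animals limits the precision. The transporters, gene lists and rules were chosen with earlier results of these data known. Named by rule are all brush border and widely used transporters with a probe, other members altered against the controls, and listed peptidases, partners and ATF4 targets altered there. SLC36A4, SLC7A8, SLC6A4, SLC15A2, ENPEP and the cell type markers named singly were picked after their values were seen. SLC7A6OS, an opposite-strand gene whose symbol only begins alike, was left out. Gene symbols came from the authors' table, and no genome coordinates or sequences are used here. The fit was tested on simulated data. The alternatives were another scaling (array median, quantile), normexp background correction, the deposited values, other filters, limma with trend, the methods' t-test, the compared groups only, slide, position or replicate number in the fit, the mean of a gene's probes, and leaving out each animal. The scanner files used here give no mean signal, so normexp was run on the median signal. That choice, the counts of brush border genes with 1 animal left out, and the lists and named genes outside the planned settings with 1 animal left out or slide as a block, were made after seeing the data. Some genes are not reported here by name.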

Additional observations from a re-analysis of the deposited data

Results flagged for a closer look

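SLC6A19 in 1 animal of day 4 after 7.4 Gy was at 1.35, far above the other 3 animals of its group at 1.0 to 1.05, though inside the range of the controls. SLC7A9 in 1 animal of day 4 after 6.7 Gy was at 2.30, far below the others of its group, and this was the animal with the lowest summed enterocyte level. These are 2 of 65 gene and group pairs looked at for an animal apart, and chance alone would mark about 1 in 20.

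The change over time differed for 3 members by a direct test between days. SLC6A19 was lower on day 7 than on day 4 after 7.4 Gy (-1.08). SLC36A4 was lower on day 12 than on day 4 after 7.4 Gy (-1.26). SLC43A2 was higher on day 12 than on day 4 after 6.7 Gy (1.34).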

How the results depend on the processing

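Of the counts of altered transporters under other settings, 201 stayed within 1.5 times the reported count, 43 were lower and 2 higher. A reported count of 0 could not fall, and the 201 include values of such comparisons. So the 201 do not measure how stable the calls were. Of the class medians 2 moved by more than the SD over the 4 controls while 210 did not. Moves within that SD were not always small. With 1 animal left out, the brush border median on day 4 after 6.7 Gy went from -0.57 to -0.27. That on day 7 after 7.4 Gy went from -0.15 to 0.0051. The SLC43A2 call of day 4 after 6.7 Gy (1 member) became 0 with position as a covariate, the array median, no filter on dim probes, normexp, only the groups compared, quantile normalization, the replicate block and the methods' t-test. The SLC1A1 call of day 7 after 6.7 Gy became 0 with only the groups compared, the replicate block and the t-test, and the SLC6A19 call of day 7 after 7.4 Gy became 0 with only the groups compared and the t-test. Between days, the count became 0 for SLC43A2 (day 12 against 4, 6.7 Gy) with only the groups compared and slide as a block. For SLC36A4 (day 12 against 4, 7.4 Gy) it became 0 with these and with no filter and normexp, and for SLC6A19 (day 7 against 4, 7.4 Gy) with slide as a block and normexp. With slide as a block SLC15A2 made the count 1 on day 4 after 7.4 Gy. Leaving out 1 animal of the groups compared gave counts of 0 to 1 in these comparisons, 0 to 3 for day 12 against day 4 after 6.7 Gy, and always 1 for day 7 after 7.4 Gy. The causes were not tested.

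The widely used median was 0.17 on day 12 after 6.7 Gy with the mean of a gene's probes and -0.13 on day 4 after 7.4 Gy with position as a covariate. Signs turned in 61 values of single genes, none of them altered. With position as a covariate they were, on day 4 after 7.4 Gy, 0.93 for SLC15A1, 0.65 for SLC7A9, 0.38 for SLC6A20, 0.041 for SLC6A19, 0.014 for SLC36A1, -0.46 for SLC38A1 and -0.56 for SLC7A1, and after 6.7 Gy 0.17 for SLC6A20, 0.023 for SLC3A2 and -0.12 for SLC7A1. The position term came from the animals of day 4 after 6.7 Gy alone, where position also differed with slide and scan day. With the mean of probes SLC15A1 was 0.047 on day 12 after 7.4 Gy, and SLC7A1 was 0.026 on day 12 after 6.7 Gy and -0.10 on day 7 after 7.4 Gy. With slide as a block SLC38A2 was -0.13 on day 4 after 7.4 Gy, SLC3A2 -0.18 on day 12 after 7.4 Gy and SLC7A9 0.11 on day 12 after 6.7 Gy. On day 7 after 7.4 Gy SLC36A1 was 0.031 with normexp, 0.011 with the array median and 0.0028 with quantile normalization, and SLC6A14 was 0.18, 0.012 and 0.13. Normexp also gave -0.078 for SLC3A2 on day 12 after 7.4 Gy, 0.036 for SLC6A14 on day 4 after 6.7 Gy and 0.0039 for SLC7A1 on day 7 after 6.7 Gy, and the array median gave 0.045 for SLC3A2 on day 4 after 6.7 Gy.

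Leaving out 1 animal at a time turned the sign of some values. Their changes for day 12 after 6.7 Gy ran from -0.13 to 0.20 for SLC15A1, -0.50 to 0.0083 for SLC36A1, -0.020 to 0.75 for SLC3A2, -0.24 to 0.76 for SLC43A2, -0.025 to 0.41 for SLC6A14 and -0.29 to 0.084 for SLC7A9. Their changes for day 12 after 7.4 Gy ran from -0.29 to 0.071 for SLC15A1, -0.18 to 0.062 for SLC38A2, -0.040 to 0.27 for SLC3A2 and -0.21 to 0.027 for SLC6A20. Their changes for day 7 after 7.4 Gy ran from -0.17 to 0.15 for SLC36A1, -0.17 to 0.093 for SLC6A14, -0.27 to 0.12 for SLC6A20 and -0.14 to 0.17 for SLC7A1. Their changes for day 4 after 7.4 Gy ran from -0.052 to 0.16 for SLC38A2. Their changes for day 4 after 6.7 Gy ran from -0.12 to 0.18 for SLC3A2, -0.29 to 0.043 for SLC6A20 and -0.010 to 0.45 for SLC7A1. Their changes for day 7 after 6.7 Gy ran from -0.11 to 0.21 for SLC6A14, -0.043 to 0.27 for SLC6A20 and -0.28 to 0.0083 for SLC7A1.

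Replicate numbers were not treated as pairs, since deviations of animals with the same number correlated between -0.264 and 0.365 (median 0.0295, 62 pairs). With the replicate block SLC43A2 (day 4 after 6.7 Gy) and SLC1A1 (day 7 after 6.7 Gy) both had an adjusted p of 0.054, so their counts were 0, and it changed no other count of transporters. Probes near background, such as SLC6A14 and SLC7A11, give the least certain values, and the 2 animals of each day 12 group limit what can be called there.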
